A study of Drosophila melanogaster with 28 samples.

Results

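The 42 named genes for ion channels and transmitter receptors followed here are 42 of the 17753 genes in the count table of embryos at 16-18 h and of the 17558 genes in that of embryos at 14-16 h. They were chosen by symbol, without a rule on their levels but with earlier results of these data known, and each was found once in both tables. They comprise 10 nicotinic acetylcholine receptor subunits, 2 muscarinic receptors, 4 subunits of inhibitory ligand-gated channels, 3 genes of the sodium channel group, 4 of calcium channels, 9 of voltage-gated potassium channels, 2 of calcium-activated potassium channels, the hyperpolarisation-activated channel Ih, 5 glutamate receptor subunits of body wall muscle and 2 NMDA receptor subunits.

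Ion channels set the electrical behaviour of neurons: sodium and calcium channels carry the inward currents that drive spikes and transmitter release, and potassium channels end them. Acetylcholine is the main fast excitatory transmitter of the insect central nervous system, whereas GABA and glutamate open chloride channels that inhibit. At the neuromuscular junction of the fly the motor neuron releases glutamate, so that the GluRII genes are expressed by muscle and not by neurons. In the late embryo neurons leave the phase of axon growth and become electrically active.

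Short-read mRNA sequencing of whole Drosophila melanogaster embryos was made at 2 ages. At 14-16 h the mutants nej3 and nejEP1179 and the control w1118 had 4 libraries each. nej encodes the acetyltransferase CBP, nej3 was kept over the balancer FM7c, and nejEP1179 carries a P element of the EP type. At 16-18 h there were 2 libraries of Dfd1, a mutant of the Hox gene Deformed, 3 labelled ez731 (E(z), the methyltransferase of Polycomb repressive complex 2, on a chromosome with an FRT element), 2 labelled psce22 and 3 labelled psch27 (alleles of Psc, of Polycomb repressive complex 1), 3 labelled SppsG8810 (an insertion allele of Spps, which codes for a protein that recruits Polycomb) and 3 of w1118. Mutant embryos came from heterozygous parents with GFP-marked balancers, were picked by morphology and by lack of GFP, and each library pooled many embryos. The study states that both sexes were used in equal amounts, but the labels give no sex for these libraries. Whether sex differed between mutant and w1118 libraries was not tested, and 11 of the 42 genes lie on the X chromosome. FM7c is a balancer of the X chromosome, so picking nej3 embryos without the balancer may also have selected by sex. In the nej3 libraries an effect of sex and one of the mutation therefore cannot be told apart. The w1118 stock differs from each mutant stock in genetic background as well as in the mutation, and in embryo picking, and these cannot be told apart here. Because whole embryos were extracted, fewer cells of a type and less RNA per cell cannot be told apart either.

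The labels of 4 groups at 16-18 h went against other evidence. The mean normalized counts that the authors deposited for each mutant were matched, among 364 sets of columns tried at 16-18 h and 70 at 14-16 h, by columns carrying another group's label for ez731, psce22, psch27 and SppsG8810, and by the group's own columns for Dfd1 and both nej alleles. The transcript of Psc stood at 20.6 CPM in the libraries labelled psce22, 18.1 to 128 CPM in those labelled psch27 and 329 CPM in those labelled SppsG8810, against 28.1 CPM in w1118. E(z) stood at 21.5 CPM in the libraries labelled ez731 and 14.8 CPM in those labelled psce22, against 24.3 CPM in w1118. By the deposited tables, the libraries labelled ez731 would be SppsG8810, those labelled SppsG8810 would be psch27, replicates 2 and 3 labelled psch27 would be psce22, and those labelled psce22, together with replicate 1 labelled psch27, would be ez731. Which naming is right was not settled here, so "for ez731" and the like name a column label and not a genotype. These groups are therefore given as the libraries labelled with a name. Replicate 1 labelled psch27 was nearest, over all genes, to replicate 1 labelled psce22, and the authors' values also put it with the libraries labelled psce22, so that changes of the psch27 label are given with and without it. The mutated gene itself was lower in Dfd1 (Dfd 7.79 CPM, against 18.7 CPM in w1118). For nej the mean was 414 CPM in nejEP1179 and 243 CPM in nej3, against 249 CPM in w1118.

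Libraries held 13129082 to 21509453 counts at 14-16 h and 17940038 to 22354257 at 16-18 h. Levels are given in CPM, counts scaled to 1000000 per library after TMM normalization, and every one of the 42 genes passed the filter on low counts. Changes are log2 fold changes ± SE from the quasi-likelihood model of edgeR, with p-values adjusted by Benjamini-Hochberg over all 10397 or 11366 genes tested, and a gene is said to rise or fall only with an adjusted p under 0.05. The biological coefficient of variation was 0.098 at 14-16 h and 0.181 at 16-18 h. The labels do not say that replicates came from separate collections, so p-values measure the spread between these libraries. All 15 pan-neuronal markers were detected in every group, and their summed level was 3400 to 5025 CPM at 14-16 h and 3054 to 4605 CPM at 16-18 h. Eggshell and yolk transcripts summed to 1139 and 3775 CPM in Dfd1 and 99.7 to 1337 CPM in libraries labelled ez731, against 8.10 to 36.1 CPM in w1118 at that age, and their part in the changes of the channel genes was not tested.

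In w1118 the 42 genes covered a wide range of levels. Per kb of exon, the nicotinic subunit gene nAChRbeta1 was the highest of them at both ages, with 47.8 CPM per kb at 16-18 h and 34.7 CPM per kb at 14-16 h. Grd was the lowest, with 0.544 and 0.133 CPM per kb at these ages. Behind nAChRbeta1 at 16-18 h came the potassium channel genes slo (23.3 to 25.7 CPM per kb over 3 libraries), Shaw (23.1 to 24.2) and Shab (20.9 to 23.5), whose libraries overlapped, and then Shal, nAChRalpha2, Nmdar1 and Rdl, at 20.1 to 20.7 CPM per kb on average, which overlapped as well. At 14-16 h the places after nAChRbeta1 were held by GluRIID (22.3 to 24.6 CPM per kb over 4 libraries), slo (17.7 to 20.3), GluRIIC (19.1 to 19.6) and GluRIIE (17.8 to 18.9). GluRIID stood above the other 3 in all libraries, while slo overlapped with GluRIIC and GluRIIE.

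**Figure D1:**
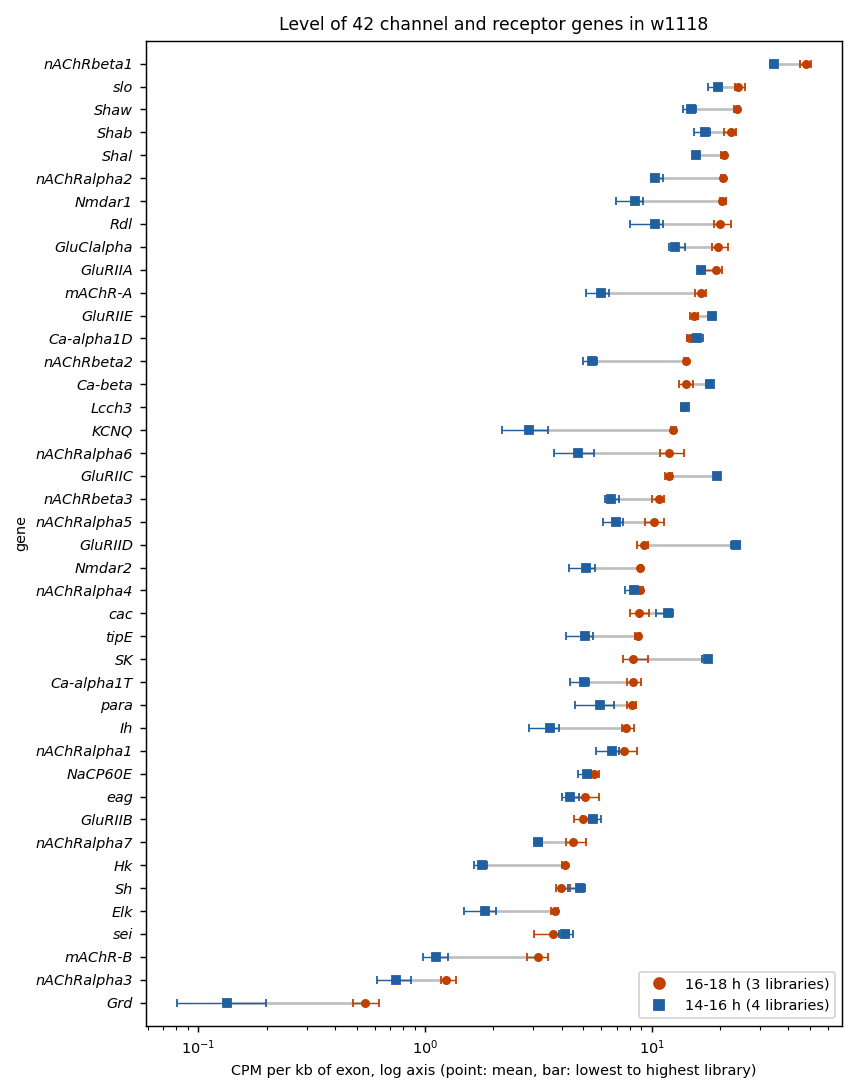
Level of the 42 genes in w1118 embryos, in CPM per kb of exon on a log axis, as the mean (point) and the range over libraries (bar) at 16-18 h (3 libraries) and 14-16 h (4 libraries). Genes are ordered by the level at 16-18 h, from nAChRbeta1 at the top (47.8 CPM per kb) to Grd at the bottom (0.544 CPM per kb).

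The control embryos of both ages were set side by side without a test, because each age has its own table and age and table cannot be told apart. For 27 of the 42 genes (64.3%) every library at 16-18 h lay above every library at 14-16 h, and for 6 every library lay below, with a median log2 ratio of 0.49. Over the 9151 genes at 1 CPM or more at both ages, 3407 (37.2%) lay above and 3963 below, with a median of -0.06. KCNQ, the channel of the slow M-type potassium current, had the highest ratio of the group: 49.8, 47.1 and 47.8 CPM at 16-18 h and 13.6, 11.04, 11.4 and 8.50 CPM at 14-16 h, a ratio of 4.34. The muscarinic receptor genes mAChR-B and mAChR-A had ratios of 2.80 and 2.76, and Grd, at 2.14, 2.56 and 1.95 CPM and 0.577, 0.805, 0.455 and 0.329 CPM, one of 4.09. Genes that lay lower at 16-18 h were GluRIID (ratio 0.392), the calcium-activated potassium channel gene SK (0.467), GluRIIC (0.617), the presynaptic calcium channel gene cac (0.742), Ca-beta (0.784) and GluRIIE (0.833). Of these 6, 3 are subunits of the muscle receptor.

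Over the 8 comparisons 35 of the 42 genes passed the test at least once, in 78 calls. In nej3 against w1118, 2 rose and 6 fell, where 24.0% of all genes tested were called. In nejEP1179 against w1118, 5 rose and 1 fell (24.9% of all genes called), a split that was 2 and 4 without nejEP1179 replicate 4, 1 and 1 without nejEP1179 replicate 3, and 2 and 1 without w1118 replicate 1, 3 or 4. In the direct comparison of nej3 against nejEP1179, 1 was higher and 5 were lower (9.3% of all genes called, with 4.3% lower). The shares called among the 42 genes, 19.0, 14.3 and 14.3%, were near or below these backgrounds, apart from the direct comparison of the alleles. The median log2 change of the 42 genes was -0.05 in nej3, 0.11 in nejEP1179 and -0.16 between the alleles, beside -0.01, -0.00 and -0.00 over all genes.

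At 16-18 h the direction depended on the group. In Dfd1, 3 rose and 18 fell, a share of 50.0% where 52.5% of all genes were called. Their median log2 change was -0.25, beside 0.01 over all genes, of which 2901 rose and 3070 fell. In libraries labelled ez731, 18 rose and 0 fell by edgeR (42.9%), with 28.9% of all genes called and 13.2% that rose. The median was 0.23 beside -0.01 over all genes. Here 0 genes of the 42 fell at an unadjusted p under 0.05 and 0 fell by DESeq2. The count of 18 was 10 to 23 when single libraries were left out, with 10 without ez731 replicate 3, 11 without ez731 replicate 2 or without w1118 replicate 1 or 2. In libraries labelled psce22, 4 rose and 5 fell (21.4%, with 39.6% of all genes called). In those labelled psch27, 6 rose and 0 fell (7.49% of all genes called, with 3.48% that rose). In those labelled SppsG8810, 3 rose and 1 fell (8.86% of all genes called, with 3.43% that rose and 5.43% that fell). Each of these 3 counts depended on the libraries fitted, as did the number called over all genes. Leaving out psce22 replicate 2 left a single library of that label. There the log2 changes were 0.60 for SK, -0.43 for Ih and -0.39 for mAChR-B, beside 0.63, -0.57 and -0.55 with both libraries. Without psch27 replicate 1, 15 were called for the psch27 label, and without psch27 replicate 3, w1118 replicate 1 or w1118 replicate 2, 3, 1 and 1 were. Over all genes 1557, 543, 343 and 347 were called in these fits, against 851 with every library. For the SppsG8810 label 1 gene was called without SppsG8810 replicate 2 or 3 or without w1118 replicate 1 or 2. Over all genes 490 to 542 were called there, against 1007.

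**Figure D2:**
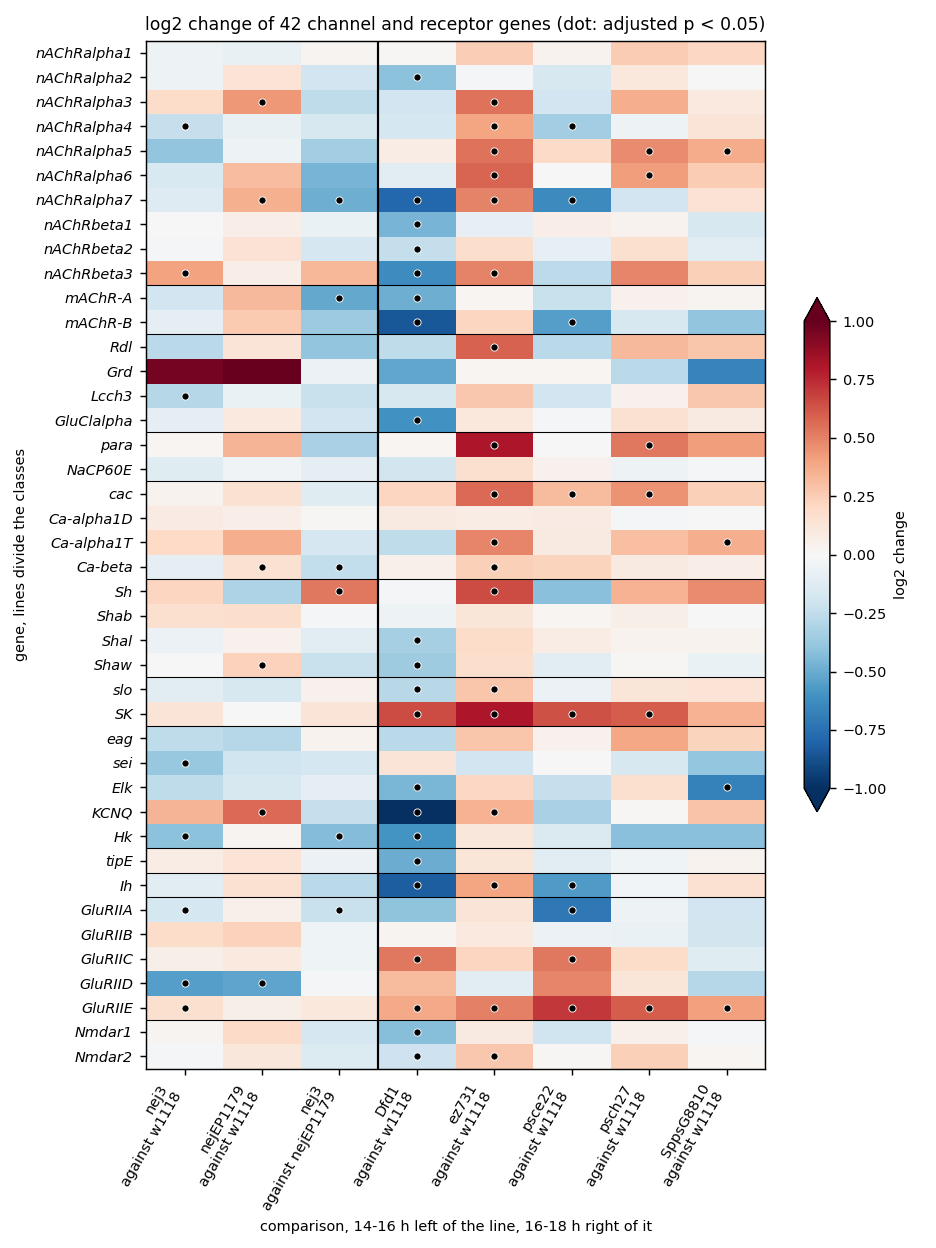
log2 change of each of the 42 genes (rows, divided by class) in 8 comparisons (columns, 14-16 h left of the line and 16-18 h right of it, groups at 16-18 h by column label), with red for higher and blue for lower in the group named first, and a dot for an adjusted p under 0.05. The column of Dfd1 holds 18 dots on lower genes, and that of the ez731 label 18 dots on higher ones.

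The nicotinic receptors are pentameric cation channels, and their 10 subunit genes differed in how they moved. nAChRalpha7 (FBgn0086778, X 19327075 to 19348447), a subunit gene with a role in the escape circuit of the fly, was called in 5 comparisons. In the nej alleles it stood at 16.3, 18.9, 13.7 and 17.6 CPM in nej3 and at 19.5, 21.96, 26.8 and 25.3 CPM in nejEP1179, against 17.6, 18.4, 19.0 and 17.9 CPM in w1118. All nejEP1179 libraries lay above all w1118 libraries (log2 change 0.36 ± 0.10 with adjusted p = 0.0188) and above all nej3 libraries, so that nej3 was lower than nejEP1179 (log2 change -0.49 ± 0.10 with adjusted p = 0.00725). The call against w1118 did not hold without nejEP1179 replicate 3 or without w1118 replicate 1 (adjusted p = 0.0509 to 0.0656, each in its own fit), while the one between the alleles held in every alternative run.

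At 16-18 h nAChRalpha7 stood at 14.7 and 15.5 CPM in Dfd1, 28.8, 43.5 and 38.2 CPM in libraries labelled ez731 and 17.5 and 16.0 CPM in those labelled psce22, against 24.4, 24.2 and 29.6 CPM in w1118. The Dfd1 and psce22-labelled libraries lay below all of w1118, and those labelled ez731 overlapped with w1118 in 1 library. It fell in Dfd1 (log2 change -0.79 ± 0.18 with adjusted p = 0.00333) and for the psce22 label (log2 change -0.64 ± 0.18 with adjusted p = 0.0166), and rose for the ez731 label (log2 change 0.50 ± 0.16 with adjusted p = 0.0331). The psce22 call was lost without psce22 replicates 1 or 2 or without w1118 replicate 3 (adjusted p = 0.0531 to 0.134, each in its own fit) and the ez731 call without ez731 replicates 2 or 3 or without w1118 replicates 1 or 2 (adjusted p = 0.0885 to 0.147, each in its own fit).

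nAChRbeta1 (FBgn0000038, 3L 4429349 to 4435993), the beta subunit gene with the highest level per kb, stood at 96.4 and 109.7 CPM in Dfd1, against 135, 142 and 149.6 CPM in w1118, and fell (log2 change -0.46 ± 0.07 with adjusted p = 0.000213). It passed in no other comparison, where its log2 changes ran from -0.16 to 0.07. In Dfd1 nAChRbeta3 fell too (log2 change -0.63), as did nAChRalpha2 (-0.41) and nAChRbeta2 (-0.24). The call of nAChRbeta3 was lost without Dfd1 replicate 2 (adjusted p = 0.094), that of nAChRalpha2 without Dfd1 replicate 1 (adjusted p = 0.127) and that of nAChRbeta2 without Dfd1 replicates 1 or 2 or without w1118 replicate 3 (adjusted p = 0.0569 to 0.122, each in its own fit).

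In libraries labelled ez731, 6 of the 10 nicotinic genes rose, nAChRalpha7 among them. nAChRbeta3 had a log2 change of 0.50 there, a call lost without ez731 replicates 1, 2 or 3 or without w1118 replicates 1, 2 or 3 (adjusted p = 0.0531 to 0.098, each in its own fit). nAChRalpha4 (FBgn0266347, 3L 23206669 to 23287448) stood at 64.2, 76.4 and 71.0 CPM there and at 43.0 and 41.2 CPM in libraries labelled psce22, against 51.8, 53.3 and 55.5 CPM in w1118. All libraries labelled ez731 were above and all labelled psce22 below w1118, with a rise for ez731 (log2 change 0.40 ± 0.07 with adjusted p = 0.000922) and a fall for psce22 (log2 change -0.35 ± 0.07 with adjusted p = 0.00512), the call for psce22 being lost without psce22 replicate 2 (adjusted p = 0.078). In nej3 the same gene stood at 44.7, 47.0, 36.0 and 44.3 CPM, against 52.6, 53.0, 50.1 and 46.0 CPM in w1118 (log2 change -0.23 ± 0.08 with adjusted p = 0.0455). That call did not hold without nej3 replicates 1, 3 or 4 or without w1118 replicates 1, 2 or 3, with RLE size factors, with the replicate block, when only the compared groups were fitted, with DESeq2 (adjusted p = 0.0534 to 0.119, each in its own fit). Exons of transposon insertions and of a noncoding gene on the other strand overlap those of nAChRalpha4, and the strand setting of the counts is not given in the sources used here.

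nAChRalpha5 (FBgn0028875, 2L 14040170 to 14094401) and nAChRalpha6 (FBgn0032151, 2L 9793317 to 9886250), both subunits close to the vertebrate alpha7 type, rose together for the labels ez731 and psch27. nAChRalpha5 stood at 119.5, 158 and 144 CPM in libraries labelled ez731, 128, 137 and 135 CPM in those labelled psch27 and 116, 130.5 and 127 CPM in those labelled SppsG8810, against 94.0, 87.9 and 106 CPM in w1118. Every one of these 9 libraries lay above every w1118 library. The changes were 0.55 ± 0.10 for ez731 (adjusted p = 0.00153), 0.47 ± 0.10 for psch27 (adjusted p = 0.0133) and 0.37 ± 0.10 for SppsG8810 (adjusted p = 0.0342) on the log2 scale. Only the first held in every alternative: the psch27 call was lost without w1118 replicates 1 or 2, when only the compared groups were fitted (adjusted p = 0.0599 to 0.0811, each in its own fit), and the SppsG8810 call without SppsG8810 replicates 2 or 3 or without w1118 replicates 1 or 2 (adjusted p = 0.11 to 0.145, each in its own fit). Without replicate 1 labelled psch27 the psch27 change of nAChRalpha5 was 0.50 ± 0.10 with adjusted p = 0.0063.

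nAChRalpha6 stood at 117, 156 and 145 CPM in libraries labelled ez731 and 120.0, 124 and 129 CPM in those labelled psch27, against 84.5, 86.6 and 108 CPM in w1118, with no overlap for either label. It rose for ez731 (log2 change 0.58 ± 0.11 with adjusted p = 0.00253) and for psch27 (log2 change 0.42 ± 0.11 with adjusted p = 0.0417), and the psch27 call was lost without psch27 replicates 2 or 3 or without w1118 replicates 1 or 2, when only the compared groups were fitted, with replicate 1 labelled psch27 moved to psce22 (adjusted p = 0.0624 to 0.171, each in its own fit). Without replicate 1 labelled psch27 the psch27 change of nAChRalpha6 was 0.44 ± 0.12 with adjusted p = 0.0336. nAChRalpha3 (FBgn0015519, X 8276200 to 8367169), one of the lowest genes per kb, stood at 17.8, 19.8 and 19.6 CPM in libraries labelled ez731, against 12.4, 12.3 and 14.4 CPM in w1118 (log2 change 0.54 ± 0.12 with adjusted p = 0.00537), a call that held in every alternative.

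Besides these, nAChRbeta3 and nAChRalpha3 passed in 1 nej allele each. nAChRbeta3 (FBgn0031261, 2L 545129 to 547096) stood at 12.7, 12.1, 16.3 and 12.4 CPM in nej3, against 10.1, 9.52, 10.97 and 9.92 CPM in w1118 (log2 change 0.40 ± 0.11 with adjusted p = 0.0177). All nej3 libraries lay above w1118, but replicate 3 stood apart from the other 3, and the call was lost without nej3 replicate 3 or without w1118 replicate 2 (adjusted p = 0.0541 to 0.062, each in its own fit). nAChRalpha3 stood at 8.39, 9.44, 11.4 and 13.6 CPM in nejEP1179, against 8.37, 9.09, 7.37 and 6.47 CPM in w1118, with 1 nejEP1179 library inside the w1118 range (log2 change 0.44 ± 0.15 with adjusted p = 0.0468). This call was lost without nejEP1179 replicates 3 or 4 or without w1118 replicates 1, 3 or 4, with the replicate block (adjusted p = 0.0667 to 0.135, each in its own fit). nAChRalpha1, the remaining subunit, passed in none of the 8 comparisons and stood at 81.0, 74.1 and 94.7 CPM in w1118 at 16-18 h and 75.7, 77.0, 79.3 and 62.3 CPM in w1118 at 14-16 h.

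The muscarinic receptors act through G proteins rather than as channels, and both fell in Dfd1. mAChR-B (FBgn0037546, 3R 8059284 to 8087049) stood at 8.36 and 8.50 CPM in Dfd1 and 11.3 and 9.40 CPM in libraries labelled psce22, against 16.8, 15.1 and 13.6 CPM in w1118, so that neither group overlapped with w1118. It fell in Dfd1 (log2 change -0.84 ± 0.14 with adjusted p = 0.000357) and for psce22 (log2 change -0.55 ± 0.14 with adjusted p = 0.0104), and the psce22 call was lost without psce22 replicate 2 (adjusted p = 0.135). mAChR-A (FBgn0000037, 2R 24378630 to 24390294) stood at 59.1 and 69.2 CPM in Dfd1, against 91.1, 84.6 and 94.1 CPM in w1118 (log2 change -0.49 ± 0.10 with adjusted p = 0.00151). At 14-16 h mAChR-A stood at 24.8, 31.5, 23.3 and 34.5 CPM in nej3, against 34.5, 36.3, 46.2 and 46.4 CPM in nejEP1179, where 1 nej3 library was just above the lowest of nejEP1179 (log2 change -0.51 ± 0.14 with adjusted p = 0.0449). That difference did not pass without nej3 replicates 1, 2 or 3 or without nejEP1179 replicates 3 or 4, with no filter on low counts, with the replicate block, when only the compared groups were fitted (adjusted p = 0.0514 to 0.112, each in its own fit).

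Of the inhibitory channels, Rdl codes for the main subunit of the GABA receptor. Rdl (FBgn0004244, 3L 9145838 to 9182149) stood at 226, 309 and 279 CPM in libraries labelled ez731, against 172, 168 and 200.4 CPM in w1118, all above, and rose (log2 change 0.59 ± 0.14 with adjusted p = 0.0094). GluClalpha (FBgn0024963, 3R 19730715 to 19775231), the glutamate-gated chloride channel, stood at 81.8 and 89.7 CPM in Dfd1, against 125, 122 and 144 CPM in w1118, and fell (log2 change -0.60 ± 0.10 with adjusted p = 0.000313). In the other 7 comparisons its log2 change ran from -0.19 to 0.15 and did not pass. Lcch3 (FBgn0010240, X 15925105 to 15928529), a further subunit of the GABA receptor family, stood at 20.5, 24.1, 19.6 and 23.1 CPM in nej3, against 26.2, 27.14, 25.5 and 27.5 CPM in w1118 (log2 change -0.28 ± 0.07 with adjusted p = 0.00862). All nej3 libraries were below all w1118 libraries and the call held in every alternative, although exons of Ranbp16 and of an antisense RNA lie across those of Lcch3 on the other strand. Grd, whose product is related to these subunits, passed nowhere at its low level of 0.329 to 3.01 CPM.

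The sodium channel gene para (FBgn0285944, X 16455027 to 16533096), which carries the spikes of fly neurons, was among the largest rises of the group. It stood at 195, 269 and 236 CPM in libraries labelled ez731 and 162, 188 and 226 CPM in those labelled psch27, against 133, 128 and 139 CPM in w1118. Neither label overlapped with w1118, and para rose for ez731 (log2 change 0.81 ± 0.13 with adjusted p = 0.000772) and for psch27 (log2 change 0.53 ± 0.13 with adjusted p = 0.0279), the psch27 call being lost without psch27 replicate 3 or without w1118 replicates 1, 2 or 3, when only the compared groups were fitted (adjusted p = 0.0633 to 0.133, each in its own fit). Without replicate 1 labelled psch27 the psch27 change of para was 0.64 ± 0.12 with adjusted p = 0.00401. For Dfd1, with 127 and 144 CPM, the log2 change was 0.02 ± 0.14 and did not pass. tipE (FBgn0003710, 3L 4188499 to 4193788), which codes for an auxiliary subunit of the sodium channel, stood at 23.5 and 26.7 CPM in Dfd1, against 36.3, 34.5 and 35.6 CPM in w1118, and fell (log2 change -0.50 ± 0.10 with adjusted p = 0.00165). NaCP60E, a relative of the sodium channel genes, passed nowhere, at 66.5 to 108 CPM over all libraries.

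Among calcium channels cac (FBgn0263111, X 11931280 to 11985087), which opens at the presynaptic site of transmitter release, rose in 3 groups. It stood at 143, 169.8 and 152 CPM in libraries labelled ez731, 126 and 134 CPM in those labelled psce22 and 151, 128 and 149 CPM in those labelled psch27, against 95.2, 102 and 116 CPM in w1118, and all of these 8 libraries lay above w1118. It rose for ez731 (log2 change 0.57 ± 0.10 with adjusted p = 0.00112), for psch27 (log2 change 0.45 ± 0.10 with adjusted p = 0.016) and for psce22 (log2 change 0.31 ± 0.11 with adjusted p = 0.0361). The psch27 call was lost without psch27 replicate 3 or without w1118 replicates 1 or 2, when only the compared groups were fitted (adjusted p = 0.0534 to 0.14, each in its own fit), and the psce22 call without psce22 replicates 1 or 2 or without w1118 replicates 1 or 2 (adjusted p = 0.0679 to 0.166, each in its own fit). Without replicate 1 labelled psch27 the psch27 change of cac was 0.41 ± 0.10 with adjusted p = 0.0172. In libraries labelled SppsG8810 cac stood at 118, 131 and 121 CPM, also above every w1118 library, and did not pass.

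Ca-alpha1T (FBgn0264386, X 6104085 to 6192483), the T-type channel, stood at 134, 173 and 151 CPM in libraries labelled ez731 and 128, 148 and 141 CPM in those labelled SppsG8810, against 103, 105 and 118 CPM in w1118, again with no overlap. It rose for ez731 (log2 change 0.49 ± 0.09 with adjusted p = 0.00216) and for SppsG8810 (log2 change 0.36 ± 0.09 with adjusted p = 0.0315), a call lost without SppsG8810 replicates 2 or 3 or without w1118 replicates 1 or 2 (adjusted p = 0.104 to 0.127, each in its own fit). Ca-beta (FBgn0259822, 2L 11156118 to 11203544), the auxiliary beta subunit, stood at 146, 143, 134 and 143 CPM in nej3, against 164, 155, 165 and 186 CPM in nejEP1179, every nej3 library being the lower, and the difference passed in every alternative (log2 change -0.24 ± 0.05 with adjusted p = 0.00865). Against w1118, with 152, 153, 154 and 145 CPM, the nejEP1179 libraries were all higher (log2 change 0.15 ± 0.05 with adjusted p = 0.0495), a call lost without nejEP1179 replicates 1, 3 or 4 or without w1118 replicates 1, 2, 3 or 4, with no filter on low counts, with the replicate block, when only the compared groups were fitted (adjusted p = 0.0531 to 0.137, each in its own fit). At 16-18 h Ca-beta rose for ez731 (log2 change 0.24), a call lost without ez731 replicates 2 or 3 or without w1118 replicates 1 or 2, with no filter on low counts, with the replicate block (adjusted p = 0.057 to 0.158, each in its own fit). Ca-alpha1D, the L-type channel that also serves muscle, passed nowhere and stood at 148 to 201 CPM over all libraries.

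KCNQ (FBgn0033494, 2R 10145897 to 10192394), which stood higher at 16-18 h than at 14-16 h in w1118, had the largest fall of the 42 genes in Dfd1. It stood at 22.5 and 25.7 CPM in Dfd1 and 56.0, 64.3 and 63.9 CPM in libraries labelled ez731, against 49.8, 47.1 and 47.8 CPM in w1118. Dfd1 lay far below and ez731 above w1118, with a fall in Dfd1 (log2 change -1.001 ± 0.12 with adjusted p = 4.62e-05) that held in every alternative and a rise for ez731 (log2 change 0.35 ± 0.11 with adjusted p = 0.0282) that was lost without ez731 replicates 2 or 3 or without w1118 replicates 1, 2 or 3 (adjusted p = 0.054 to 0.0929, each in its own fit). The level in Dfd1 at 16-18 h lies between those of w1118 at 14-16 h and at 16-18 h, and a difference in developmental age was not tested. At 14-16 h KCNQ stood at 14.8, 15.6, 19.2 and 16.5 CPM in nejEP1179, against 13.6, 11.04, 11.4 and 8.50 CPM in w1118, with every nejEP1179 library above w1118 (log2 change 0.57 ± 0.14 with adjusted p = 0.00734, held in every alternative), and at 11.9, 16.3, 12.9 and 15.2 CPM in nej3, which did not pass. Exons of CG18011 and an antisense RNA overlap those of KCNQ on the other strand.

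**Figure D3:**
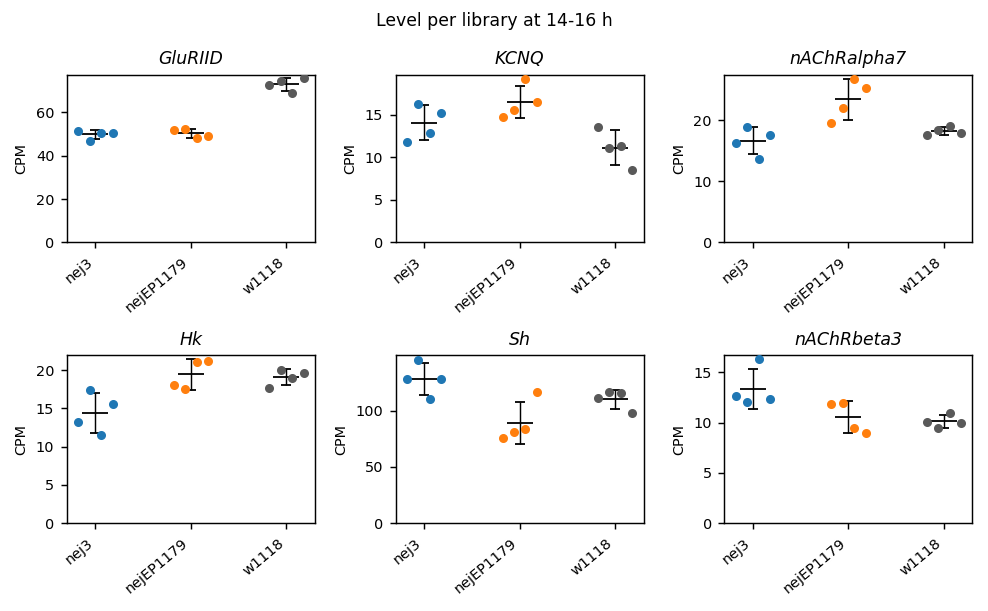
CPM of 6 genes in each library at 14-16 h (points), with the mean (line) and SD (bars) of nej3, nejEP1179 and w1118, 4 libraries each. GluRIID is lower in both alleles than in w1118, whereas nAChRalpha7 and KCNQ are higher in nejEP1179, and Sh is lower in nejEP1179 than in nej3 in all but 1 library.

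Sh (FBgn0003380, X 17924307 to 18063247), the Shaker channel of the fast A-type current, and its beta subunit Hk differed between the nej alleles in opposite directions. Sh stood at 128, 145, 110.3 and 128 CPM in nej3, against 75.3, 80.8, 83.4 and 117 CPM in nejEP1179, where replicate 4 overlapped with nej3 (log2 change 0.53 ± 0.13 with adjusted p = 0.0316). The difference was lost without nej3 replicates 1, 2 or 4 or without nejEP1179 replicates 1, 2 or 3, with the replicate block, when only the compared groups were fitted (adjusted p = 0.0585 to 0.0824, each in its own fit). Hk (FBgn0263220, X 10233347 to 10263485) stood at 13.2, 17.4, 11.5 and 15.6 CPM in nej3 and 18.0, 17.5, 21.1 and 21.2 CPM in nejEP1179, against 17.6, 20.0, 19.0 and 19.7 CPM in w1118, so that all nej3 libraries lay below w1118 and below nejEP1179. It fell in nej3 against w1118 (log2 change -0.41 ± 0.11 with adjusted p = 0.013, held in every alternative) and was lower than in nejEP1179 (log2 change -0.43 ± 0.11 with adjusted p = 0.0228), a call lost without nej3 replicates 1 or 3 or without nejEP1179 replicates 3 or 4, when only the compared groups were fitted (adjusted p = 0.0604 to 0.0708, each in its own fit).

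Hk also fell in Dfd1, at 29.9 and 28.6 CPM, against 43.2, 45.0 and 44.6 CPM in w1118 (log2 change -0.60 ± 0.15 with adjusted p = 0.00432, held in every alternative). Ipod, the neighbour of Hk on the same strand with 266 nt between them, stood at 1147 and 1237 CPM on average in nej3 and nejEP1179, against 6.13 CPM in w1118, and at 919 CPM in Dfd1, against 0.518 CPM in w1118. In nejEP1179 Hk had a log2 change of 0.02 ± 0.11 and did not pass. Whether the strong difference of Ipod bears on the reads of Hk was not tested.

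Of the other voltage-gated potassium channels, Elk (FBgn0011589, 2R 17873939 to 17926695) of the eag family gave the clearest change for the SppsG8810 label. It stood at 12.2, 13.1 and 12.2 CPM in libraries labelled SppsG8810 and 14.3 and 14.8 CPM in Dfd1, against 20.6, 19.2 and 20.4 CPM in w1118, without overlap. It fell for SppsG8810 (log2 change -0.68 ± 0.10 with adjusted p = 0.000957) and in Dfd1 (log2 change -0.46 ± 0.11 with adjusted p = 0.00368), and both calls held in every alternative. Shaw (FBgn0003386, 2L 3718185 to 3729145), a slow delayed channel, stood at 88.3 and 97.3 CPM in Dfd1, against 118, 116 and 121 CPM in w1118, and fell (log2 change -0.35 ± 0.07 with adjusted p = 0.00147). In nejEP1179 it stood at 78.1, 85.3, 89.6 and 97.7 CPM, against 78.2, 77.7, 74.3 and 69.0 CPM in w1118 (log2 change 0.23 ± 0.07 with adjusted p = 0.0333), a call lost without nejEP1179 replicates 2, 3 or 4 or without w1118 replicates 3 or 4, with the replicate block (adjusted p = 0.0519 to 0.0964, each in its own fit). sei (FBgn0003353, 2R 24047411 to 24053035), the fly erg channel, stood at 10.2, 10.7, 10.4 and 10.5 CPM in nej3, against 12.8, 13.6, 13.1 and 14.8 CPM in w1118, and fell (log2 change -0.38 ± 0.08 with adjusted p = 0.00259). Its exons overlap those of gammaSnap1 and ppk29 on the other strand. Shal, which carries a fast current in cell bodies, fell in Dfd1 (log2 change -0.33), lost without Dfd1 replicate 1 (adjusted p = 0.074), and Sh rose for ez731 (log2 change 0.65), lost without ez731 replicates 2 or 3 or without w1118 replicates 1 or 2 (adjusted p = 0.062 to 0.0786, each in its own fit). Shab and eag passed in no comparison.

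SK (FBgn0029761, X 5340236 to 5405138), the small-conductance channel opened by calcium, was one of the few genes to rise in Dfd1. It stood at 127 and 155 CPM in Dfd1, 142, 174 and 158 CPM in libraries labelled ez731, 134 and 145 CPM in those labelled psce22 and 158, 117 and 136 CPM in those labelled psch27, against 81.6, 83.7 and 105 CPM in w1118. All 10 of these libraries lay above all 3 of w1118. Those labelled SppsG8810, at 107, 121 and 116 CPM, did so too, but SK did not pass there. SK rose in Dfd1 (log2 change 0.65 ± 0.14 with adjusted p = 0.00198) and for ez731 (log2 change 0.81 ± 0.13 with adjusted p = 0.000665), both held in every alternative, and for psce22 (log2 change 0.63 ± 0.14 with adjusted p = 0.00574) and psch27 (log2 change 0.60 ± 0.13 with adjusted p = 0.0138). The psce22 call was lost without psce22 replicate 2 (adjusted p = 0.0613), and the psch27 call without w1118 replicates 1 or 2, when only the compared groups were fitted (adjusted p = 0.0673 to 0.148, each in its own fit). Without replicate 1 labelled psch27 the psch27 change of SK was 0.49 ± 0.12 with adjusted p = 0.0193. The w1118 level of SK is itself lower at 16-18 h than at 14-16 h, and the 4 groups lay between the 2 ages of w1118. At 14-16 h SK passed in neither nej allele (log2 changes 0.13 ± 0.07 and -0.00 ± 0.07).

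slo, the large-conductance channel opened by calcium and voltage, fell in Dfd1 (log2 change -0.27 ± 0.11 with adjusted p = 0.0469) and rose for ez731 (log2 change 0.28 ± 0.10 with adjusted p = 0.042). The Dfd1 call was lost without Dfd1 replicate 1 or without w1118 replicates 1, 2 or 3, with RLE size factors, with no filter on low counts, when only the compared groups were fitted, with DESeq2 (adjusted p = 0.0521 to 0.36, each in its own fit), and the ez731 call without ez731 replicates 2 or 3 or without w1118 replicates 1, 2 or 3, when only the compared groups were fitted (adjusted p = 0.0504 to 0.194, each in its own fit). Ih (FBgn0263397, 2R 14276130 to 14300095), the channel opened by hyperpolarisation, stood at 54.6 and 56.2 CPM in Dfd1, 112, 146 and 130.1 CPM in libraries labelled ez731 and 71.6 and 61.1 CPM in those labelled psce22, against 94.2, 94.3 and 106 CPM in w1118. No library of these groups overlapped with w1118. Ih fell in Dfd1 (log2 change -0.82 ± 0.14 with adjusted p = 0.000344, held in every alternative) and for psce22 (log2 change -0.57 ± 0.14 with adjusted p = 0.0081), lost without psce22 replicate 2 (adjusted p = 0.107), and rose for ez731 (log2 change 0.40 ± 0.12 with adjusted p = 0.0249), lost without ez731 replicates 2 or 3 or without w1118 replicates 1 or 2 (adjusted p = 0.0623 to 0.112, each in its own fit).

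**Figure D4:**
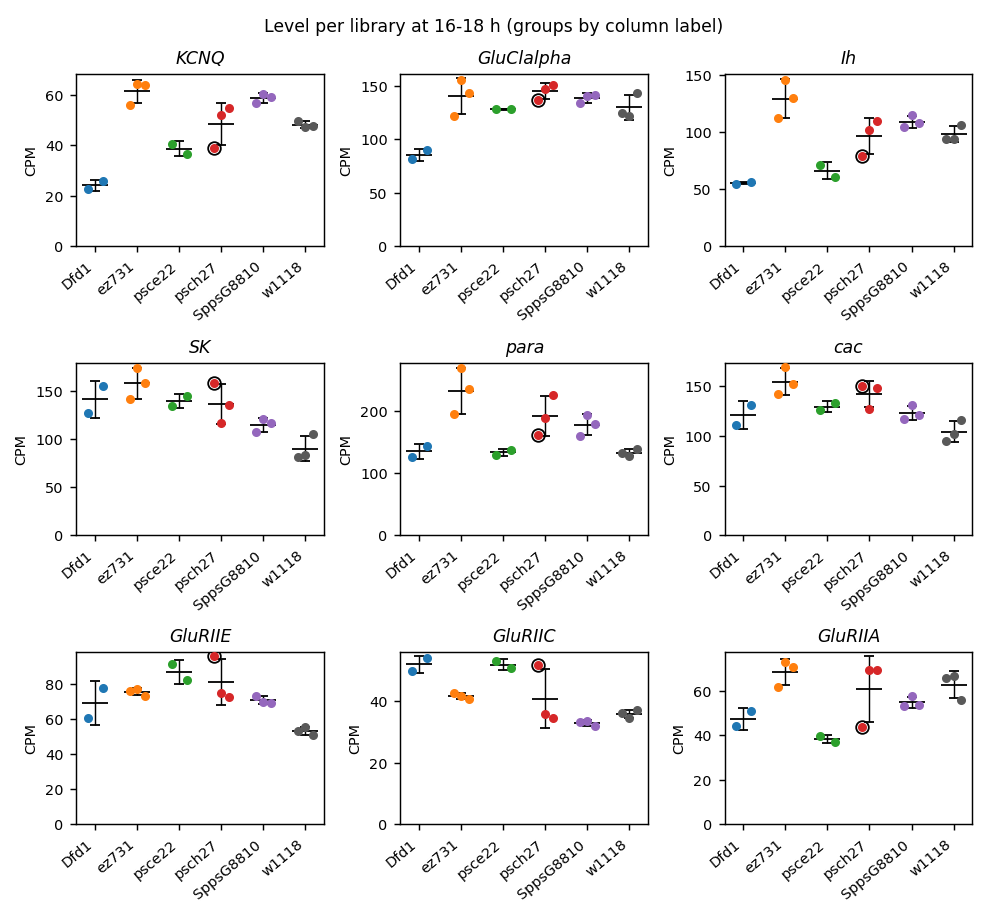
CPM of 9 genes in each library at 16-18 h (points), with the mean (line) and SD (bars) of each group by column label, and replicate 1 labelled psch27 ringed. KCNQ, GluClalpha and Ih are lowest in Dfd1, para is highest on average in libraries labelled ez731, GluRIIE is above w1118 in all 13 mutant libraries, and for GluRIIC and GluRIIA the ringed library lies with those labelled psce22.

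The muscle receptor is built from GluRIIC, GluRIID and GluRIIE together with either GluRIIA or GluRIIB, and its subunit genes did not move as a set. GluRIID (FBgn0028422, 3R 20648595 to 20652450) gave the smallest adjusted p of the 42 genes in both nej alleles. It stood at 51.5, 46.6, 50.5 and 50.4 CPM in nej3 and 51.9, 52.5, 48.2 and 49.0 CPM in nejEP1179, against 72.7, 74.4, 68.7 and 75.8 CPM in w1118. All 8 mutant libraries lay below all 4 of w1118, and GluRIID fell in nej3 (log2 change -0.55 ± 0.05 with adjusted p = 7.26e-07) and in nejEP1179 (log2 change -0.53 ± 0.05 with adjusted p = 1.13e-06), in every alternative run. The alleles differed by a log2 change of -0.02 ± 0.05, which did not pass.

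GluRIIE (FBgn0051201, 3R 20644154 to 20648716) lies next to GluRIID on the same strand, with 122 nt shared between them. In nej3, where GluRIID fell, it stood at 67.2, 74.5, 68.3 and 74.9 CPM, against 63.9, 65.2, 61.4 and 64.8 CPM in w1118 (log2 change 0.16 ± 0.05 with adjusted p = 0.0189), a call lost without nej3 replicates 2 or 4 or without w1118 replicate 3 (adjusted p = 0.0502 to 0.0666, each in its own fit). At 16-18 h GluRIIE stood at 60.5 and 77.9 CPM in Dfd1, 76.2, 77.0 and 73.2 CPM in libraries labelled ez731, 91.6 and 82.0 CPM in those labelled psce22, 95.9, 74.6 and 72.5 CPM in those labelled psch27 and 73.1, 69.8 and 69.0 CPM in those labelled SppsG8810, against 53.0, 55.3 and 50.9 CPM in w1118. All 13 mutant libraries lay above all 3 of w1118, and since the 5 comparisons share these controls they are not independent of each other.

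GluRIIE rose by 0.38 ± 0.12 on the log2 scale in Dfd1 (adjusted p = 0.0169), for ez731 by 0.51 ± 0.11 (adjusted p = 0.00426), for psce22 by 0.71 ± 0.12 (adjusted p = 0.00215), for psch27 by 0.61 ± 0.11 (adjusted p = 0.00494) and for SppsG8810 by 0.41 ± 0.11 (adjusted p = 0.0321). The calls for ez731 and psce22 held in every alternative. That of Dfd1 was lost without Dfd1 replicate 2 or without w1118 replicate 3 (adjusted p = 0.0507 to 0.218, each in its own fit), that of psch27 when only the compared groups were fitted (adjusted p = 0.0992), and that of SppsG8810 without SppsG8810 replicates 1, 2 or 3 or without w1118 replicates 1, 2 or 3 (adjusted p = 0.0744 to 0.116, each in its own fit). Without replicate 1 labelled psch27 the psch27 change of GluRIIE was 0.47 ± 0.09 with adjusted p = 0.00237. Exons of Lrrk overlap those of GluRIIE on the other strand.

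GluRIIC and GluRIIA moved in opposite directions in libraries labelled psce22. GluRIIC (FBgn0046113, 2L 914086 to 917805) stood at 49.9 and 53.9 CPM in Dfd1 and 53.0 and 50.6 CPM in libraries labelled psce22, against 36.0, 34.5 and 37.1 CPM in w1118, and rose in Dfd1 (log2 change 0.53 ± 0.13 with adjusted p = 0.00429) and for psce22 (log2 change 0.53 ± 0.13 with adjusted p = 0.0088). GluRIIA (FBgn0004620, 2L 5555072 to 5558994) stood at 39.6 and 36.9 CPM in libraries labelled psce22, against 65.8, 66.5 and 55.8 CPM in w1118, and fell (log2 change -0.71 ± 0.17 with adjusted p = 0.00739). The psce22 calls were lost without psce22 replicate 2 (adjusted p = 0.057) for GluRIIC and without psce22 replicate 2 (adjusted p = 0.0792) for GluRIIA, and the Dfd1 call held in every alternative. At 14-16 h GluRIIA stood at 43.2, 48.2, 51.0 and 48.6 CPM in nej3 and 56.5, 54.3, 57.0 and 55.7 CPM in nejEP1179, against 54.5, 54.4, 54.1 and 52.6 CPM in w1118. All nej3 libraries were the lowest, both against nejEP1179 (log2 change -0.23 ± 0.05 with adjusted p = 0.00967, held in every alternative) and against w1118 (log2 change -0.17 ± 0.05 with adjusted p = 0.018), where the call was lost without nej3 replicate 1 (adjusted p = 0.0525). GluRIIB, 347 nt downstream of GluRIIA, passed nowhere.

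The summed level of 15 muscle markers was 38130 to 44820 CPM in nej3 and 36400 to 43710 CPM in nejEP1179, against 33510 to 36350 CPM in w1118. At 16-18 h it was 40030 and 43770 CPM in Dfd1 and 46420 and 48670 CPM in libraries labelled psce22, against 55330 to 58160 CPM in w1118. Of these 15 markers 7 rose in nej3 (46.7%, with 24.0% of all genes called) and 4 rose in nejEP1179 (26.7%, near the 24.9% of all genes). In Dfd1 11 fell (73.3%, with 52.5% of all genes called), and for psce22 9 fell and 1 rose (66.7%, with 39.6% of all genes called). Where muscle transcripts were higher, GluRIID was lower in both nej alleles, and in nej3 GluRIIA was lower and GluRIIE higher. Where they were lower, in Dfd1 and for psce22, GluRIIC and GluRIIE were higher, and for psce22 GluRIIA was lower. In Dfd1 GluRIIA also lay below w1118, at 43.9 and 50.8 CPM against 55.8 to 66.5 CPM, but did not pass in the main fit. Without replicate 1 labelled psch27, GluRIIA fell in Dfd1 (log2 change -0.405, adjusted p = 0.00176 by edgeR) and GluRIID rose (0.315, adjusted p = 0.018). The part of muscle content in these values was not tested.

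The NMDA receptor genes passed only at 16-18 h. Nmdar1, the obligatory subunit, stood at 59.2 and 67.9 CPM in Dfd1, against 88.3, 84.6 and 83.1 CPM in w1118 (log2 change -0.42 ± 0.10 with adjusted p = 0.00391), and the call was lost without Dfd1 replicate 1 (adjusted p = 0.0598). Nmdar2 stood at 59.7 and 64.4 CPM in Dfd1 and 77.2, 88.6 and 93.2 CPM in libraries labelled ez731, against 71.5, 71.1 and 72.5 CPM in w1118. It fell in Dfd1 (log2 change -0.21 ± 0.08 with adjusted p = 0.035) and rose for ez731 (log2 change 0.27 ± 0.07 with adjusted p = 0.0107). The Dfd1 call was lost without Dfd1 replicates 1 or 2 or without w1118 replicates 1, 2 or 3, with no filter on low counts, with the replicate block (adjusted p = 0.0518 to 0.227, each in its own fit), and the ez731 call without ez731 replicate 3 (adjusted p = 0.052).

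Other genes of these pathways were followed as lists. Of 16 amine receptors 13 fell in Dfd1 and 0 rose (81.2%, with 52.5% of all genes called, and 6 to 13 called over the alternatives), with a median log2 change of -0.46, and TyrR (log2 change -1.36) and Oct-TyrR (-0.90), receptors of tyramine and octopamine, fell in every alternative. Of 4 tested genes of acetylcholine supply and breakdown, 2 (50.0%, near the 52.5% of all genes) fell in Dfd1, the synthetic enzyme ChAT (log2 change -0.81) and the choline transporter ChT (-0.47), and 2 rose for ez731, among them the esterase Ace (0.37). Of 16 tested auxiliary and trafficking genes, 1 rose and 7 fell in Dfd1 (50.0%), and 4 rose and 0 fell for ez731 (25.0%), shares near the 52.5 and 28.9% of all genes. Of 11 other potassium channels, 1 rose and 6 fell in Dfd1 (63.6%), where the inward rectifier Irk2 had a log2 change of -2.91.

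Of 12 other ligand-gated and metabotropic receptors tested at 14-16 h, 3 rose and 2 fell in each nej allele (41.7%, with 24.0% of all genes called in nej3 and 24.9% in nejEP1179). Grik, of the kainate receptor family, fell in nejEP1179 (log2 change -0.89) and at 16-18 h for ez731 (-1.37), psce22 (-1.95), psch27 (-1.92) and SppsG8810 (-1.17), in every alternative. Of 13 tested sensory channels 2 rose and 1 fell in each nej allele (23.1%, near the share of all genes): the fall was that of Trpgamma, with log2 changes of -0.94 in nej3 and -1.02 in nejEP1179, and the heat-activated channel TrpA1 rose by 0.73 and 1.05 on the log2 scale. The steroid and dopamine receptor gene DopEcR fell in both, with log2 changes of -0.95 and -0.94.

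Neuronal markers were measured beside the channels. Of 15 pan-neuronal markers, 13 rose and 0 fell in libraries labelled ez731 (86.7%, with 28.9% of all genes called, and 7 to 14 called over the alternatives). Their median log2 change was 0.45, and their sum was 3927 to 4605 CPM, against 3054 to 3509 CPM in w1118. The sum over the 37 genes other than the muscle receptor subunits was 3471 to 4344 CPM there, against 3040 to 3338 CPM in w1118. In Dfd1, 5 markers rose and 1 fell (6 of 15, where 52.5% of all genes were called, and 1 to 7 over the alternatives), their sum was 3176 and 3709 CPM, and the 37 genes summed to 2606 and 2931 CPM. Of 9 glial markers, 7 fell and 1 rose in Dfd1 (88.9%, with 52.5% of all genes called). The cuticle and tracheal markers summed to 4962 and 5014 CPM there, against 11170 to 12580 CPM in w1118. In nejEP1179, 6 pan-neuronal markers rose and 0 fell (2 to 8 called over the alternatives), and in nej3 1 rose and 1 fell (2 to 4 called over the alternatives). The part of neuron content or of developmental age in the channel values was not tested.

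Replicate 1 labelled psch27 stood apart from the other libraries of its label. In that library GluRIIC (51.7 CPM), GluRIID (42.8 CPM), GluRIIA (43.5 CPM) and Sh (76.0 CPM) stood near the libraries labelled psce22, whereas the other 2 of its label had 34.5 to 35.9, 25.1 to 25.3, 69.1 and 132 to 141 CPM for these genes. Without it, 14 of the 42 genes rose and 1 fell for the psch27 label, where 13.7% of all genes were called, and the 6 genes called with it were all among them. The genes gained were nAChRalpha3, nAChRbeta2, nAChRbeta3, Rdl, Ca-alpha1T, Sh, eag, Nmdar2 and, as the fall, Hk. For nAChRbeta3 the log2 change was 0.68 ± 0.10 (adjusted p = 0.00067 by edgeR) and for Hk -0.61 ± 0.10 (adjusted p = 0.000788).

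Leaving that library out, or moving it, also changed the spread shared by all groups at 16-18 h. Without it the counts were 6 that rose and 10 that fell for the psce22 label, 8 and 4 for SppsG8810, 22 and 0 for ez731, and 4 and 21 for Dfd1, with 49.5, 17.6, 41.6 and 61.5% of all genes called. With that library moved to the psce22 label and the rest kept, 7 rose and 10 fell for that group, where 53.3% of all genes were called. In this grouping GluRIID was also higher (log2 change 0.52 ± 0.09, adjusted p = 0.000251 by edgeR) beside GluRIIC (0.53 ± 0.05) and GluRIIE (0.76 ± 0.08).

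**Figure D5:**
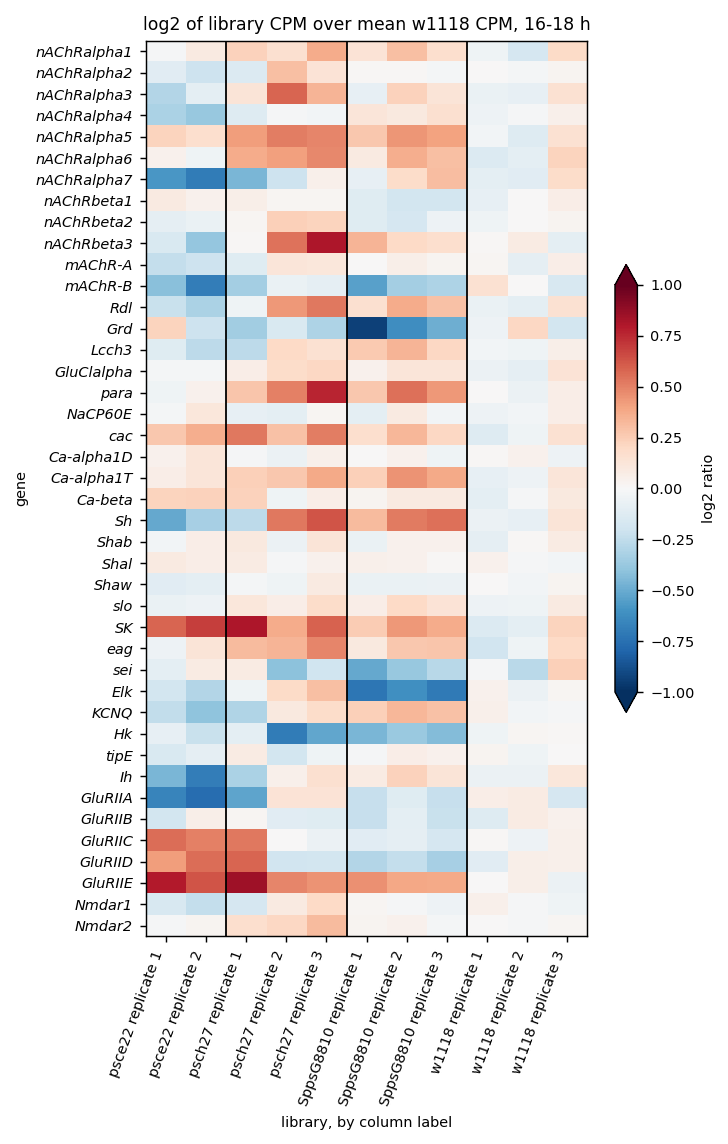
log2 ratio of the CPM of each library labelled psce22, psch27, SppsG8810 or w1118 (columns) to the mean CPM of w1118 at 16-18 h, for the 42 genes (rows), with red for above and blue for below. Replicate 1 labelled psch27 has the high GluRIIC and GluRIID and the low GluRIIA of the psce22 columns, whereas replicates 2 and 3 have the high nAChRbeta3 and Sh that it lacks.

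The 42 genes were longer than other tested genes on the median, though not each of them. They spanned 1.97 to 139 kb of the genome with a median of 26.2 kb, where the median over tested genes was 2.57 kb, and their median exon length was 5.91 kb, where that over tested genes was 1.95 kb. On the X chromosome lay 11 of them (26.2%), with 16.4% of the tested genes there.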

How the data were processed

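Raw gene counts of 28 libraries, deposited by the authors in 1 table per age, were made with featureCounts on dm6 according to the submitters' processing notes; the study's short-read methods name snakePipes with STAR in a section on head and ovary libraries that takes embryo mRNA-seq from earlier work, and the strand setting of the embryo counts is not given in the sources used here. The authors also deposited, for each mutant, a DESeq2 table whose mean normalized counts (a signal, counts divided by size factors) were read only to match columns, and whose log2 fold changes and p-values were not used. All sample columns were mapped, with 0 left over. Gene positions come from the Ensembl annotation of BDGP6, the assembly of dm6.

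Counts were filtered with filterByExpr, TMM-normalized and tested with edgeR 4.0.16 (R 4.3.3; robust quasi-likelihood fit, Benjamini-Hochberg over all genes of the table, threshold 0.05), with all groups of an age in 1 fit. On simulated data the fit recovered 76.4% of genes changed 1.5-fold in nej3 and 20.0% in Dfd1, and 91.8 and 62.5% of those changed 2-fold. Of the genes called there, 6.70% in nej3 and 4.92% in Dfd1 were unchanged ones. Far fewer genes were changed in the simulation than were called in these data, so these shares do not give the recovery in the real comparisons. Alternatives were RLE size factors, no filter, DESeq2 1.42.0, a fit restricted to the groups compared, a replicate block and leaving out each library. Leaving replicate 1 labelled psch27 out of every comparison at 16-18 h, and moving it to the psce22 label, as the authors' tables group it, were added after seeing the data. Values for every library are given for up to 6 genes that rose and 6 that fell by adjusted p in each comparison, with a mean of at least 1 CPM. Of each other list at most 3 genes were to be named, by smallest adjusted p. The 42 genes and the lists were chosen with earlier results of these data known. The listed gene ma2d was not matched and is not analysed here.

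Library totals were 13129082 to 21509453 counts at 14-16 h and 17940038 to 22354257 at 16-18 h. Between replicates of a group counts differed by 2.94 to 139 times the sampling noise (chi-square per degree of freedom, 32 pairs), so that no library was a copy of another of its own label. Pairs of different labels were not compared in this way. The values of 139 and 118 were those of replicate 1 labelled psch27, and the next highest was 36.8.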

Additional observations from a re-analysis of the deposited data

Results flagged for a closer look

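Within groups of 4 libraries, 126 sets of values of the 42 genes were examined for a library far from the other 3, and 11 were found, where chance gives about 1 in 20. Of these, 7 were low values of w1118 replicate 4 at 14-16 h: Rdl at 72.3 CPM, NaCP60E at 74.2 CPM, cac at 124 CPM, Ca-alpha1T at 57.2 CPM, Shab at 175 CPM, slo at 179 CPM and SK at 181 CPM. The 37 genes other than the muscle subunits summed to 2199 CPM in that library and to 2505 to 2544 CPM in the other 3 of w1118, and its pan-neuronal markers were the lowest of w1118 too, at 3581 CPM. Replicate 3 of nej3 was low for nAChRalpha2 (20.9 CPM) and high for nAChRbeta3 (16.3 CPM). In nejEP1179, replicate 2 was low for nAChRalpha2 (24.7 CPM) and replicate 4 high for slo (215 CPM).

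The nej alleles differed in 6 of the 42 genes by the direct edgeR comparison. nej3 was lower than nejEP1179 for nAChRalpha7 (log2 change -0.49), mAChR-A (-0.51), Ca-beta (-0.24), Hk (-0.43) and GluRIIA (-0.23), and higher for Sh (0.53).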

How the results depend on the processing

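None of the 78 calls changed direction under any alternative, but only 34 held under all of them and 44 were lost under 1 or more. For psch27, 0 of 6 calls held under all, and for psce22 1 of 9. Of the 78 calls, 76 held with RLE size factors, 73 with no filter, 76 with DESeq2 and 65 with only the groups compared in the fit. The numbers of the 42 genes called that moved by over 1.5 times were as follows, and the cause was not tested. With only the groups compared, 3 were called between the nej alleles (6 in the shared fit), 16 for psce22 (9), 0 for psch27 (6; 14 at an unadjusted p under 0.05 in the shared fit) and 16 for SppsG8810 (4), where 60 genes of the whole table were called for psch27. DESeq2 called 10 for psch27. With replicate 1 labelled psch27 moved to psce22, 17 were called for psce22, 14 for psch27 and 13 for SppsG8810. Leaving out single libraries, the one of psch27 included, gave 2 to 7 for nejEP1179, 3 to 7 between the nej alleles, 10 to 23 for ez731, 1 to 16 for psce22, 1 to 15 for psch27 and 1 to 12 for SppsG8810.

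With the replicate block 70 of the 78 calls held, and the number for nejEP1179 was 3 in place of 6. Same-numbered libraries did not deviate together as a rule (25 pairs, correlations -0.419 to 0.386, 4 libraries closest to their own number). With so few libraries in a group, this check cannot exclude that same-numbered libraries shared a collection or batch.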
